A study of Mus musculus with 17 samples.

Results

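Ndst4 Abi3bp Lmo3 nuclei are a small group of excitatory nuclei of the mouse neocortex, picked out here by the transcripts they carry. A nucleus was a member when it held at least 2 unique molecular identifiers (UMIs, each standing for 1 captured transcript) of Ndst4 and at least 1 UMI of Abi3bp, Lmo3, Tox3 or Cntnap5c. It also had to hold no UMI of the interneuron genes Gad1 and Gad2, none of Rprm, Syt6 and Deptor, which mark deep-layer neurons, none of the astrocyte gene Slc1a3, and at most 1 UMI of the layer 4 gene Rorb. Of 31486 barcodes with 600 to 5000 genes and under 5% mitochondrial UMIs, 455 were members (1.45%). They came from 8 C57BL/6 mice (C57BL/6J in the study's methods) at postnatal day 80. The 4 control mice lived in a separate room and were only handled, and the 4 other mice underwent chronic unpredictable stress (CUS), a schedule of varied daily stressors over 12 days, with neocortex taken 24 h after the last stressor. A separate set of mice at postnatal day 90, 4 control and 5 CUS, gave bulk nuclear RNA-seq of the medial prefrontal cortex (mPFC) taken by punch 24 h after the last behavioral test. The rule uses no bulk value, although the group was proposed with earlier results of the whole series known.

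Ndst4 encodes a bifunctional enzyme that removes acetyl groups from heparan sulfate chains and adds sulfate in their place, which sets where proteins can bind these chains on the cell surface. Abi3bp is a protein of the extracellular matrix, Lmo3 a LIM-only transcriptional co-regulator, Tox3 an HMG-box nuclear protein and Cntnap5c a member of the contactin-associated family of adhesion molecules. Excitatory neurons of the cortex use glutamate, load it into vesicles with the transporter Slc17a7, and fall into classes by layer and projection target.

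Ndst4 alone did not define the group. At least 2 UMIs of Ndst4 were held by 1058 barcodes, 862 of these also held a second marker, 661 had no Gad1 or Gad2 UMI, 477 lacked the deep-layer and astrocyte genes, and 455 passed the Rorb limit. A further 334 barcodes met every other clause but held 1 UMI of Ndst4, and 93 met the Ndst4 clause and all exclusions but held no second marker. Of the members, 139 held just 2 UMIs of Ndst4 and 50 held 10 or more, with a median of 4 and a maximum of 32. The median member had 3439 UMIs and 1864 genes, against 2763 UMIs in the 334 barcodes just outside. The UMIs of members summed to 116621 to 436265 per mouse, and no barcode sequence occurred in members of more than 1 library. In all quality-filtered barcodes, 27 sequences did. The summed members of any 2 mice of a group differed by more than counting noise, with chi-square at 1.65 to 2.80 times its degrees of freedom in 12 pairs. Separate mice and libraries can differ in this way, so the values only describe the spread.

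The genes of the rule set the members apart by construction, so their levels are given as a description. Levels are in counts per 1000000 (CPM), here the UMIs of a gene per 1000000 UMIs of all genes in the same nuclei of a mouse. Ndst4 stood at 1273, 1344, 1357 and 1089 CPM in the members of control mice 1 to 4, and at 1035, 1250, 1254 and 836 in those of CUS mice 1 to 4. In the 8017 other nuclei with Slc17a7 and no Gad1 or Gad2 UMI the mean was 39.2, and in 938 Cux2 Rasgrf2 nuclei, excitatory nuclei with upper-layer genes, it was 44.1. Among the rule genes, Abi3bp varied most between mice, from 79.9 CPM in CUS mouse 4 to 674 in control mouse 1, with a mean of 465 ± 209 (SD, n = 8). Lmo3 was held by 68.8% of members, Cntnap5c by 50.3%, Abi3bp by 43.7% and Tox3 by 28.4%. These second markers did not travel as a block, since 174 members held 1 of the 4, 162 held 2, 104 held 3 and 15 held all 4.

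Dpyd, the first and rate-limiting enzyme of pyrimidine breakdown, was a marker of the group outside the rule. It stood at 393 ± 95.5 CPM in members (SD, n = 8), against 139 in other Slc17a7 nuclei and 131 in Cux2 Rasgrf2 nuclei, and it was higher in members than in other Slc17a7 nuclei of the same mouse in all 8 mice, by 2.08 to 4.37 times. Slc17a7 was held by 48.4% of members at a mean of 187 CPM, close to the 218 of Cux2 Rasgrf2 nuclei. In Mog Opalin nuclei, the oligodendrocytes, which should lack it, 11.6% held Slc17a7 at a median depth of 1392 UMIs. Camk2a, a kinase of excitatory neurons, was at 667 CPM in members and 637 in other Slc17a7 nuclei.

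**Figure D1:**
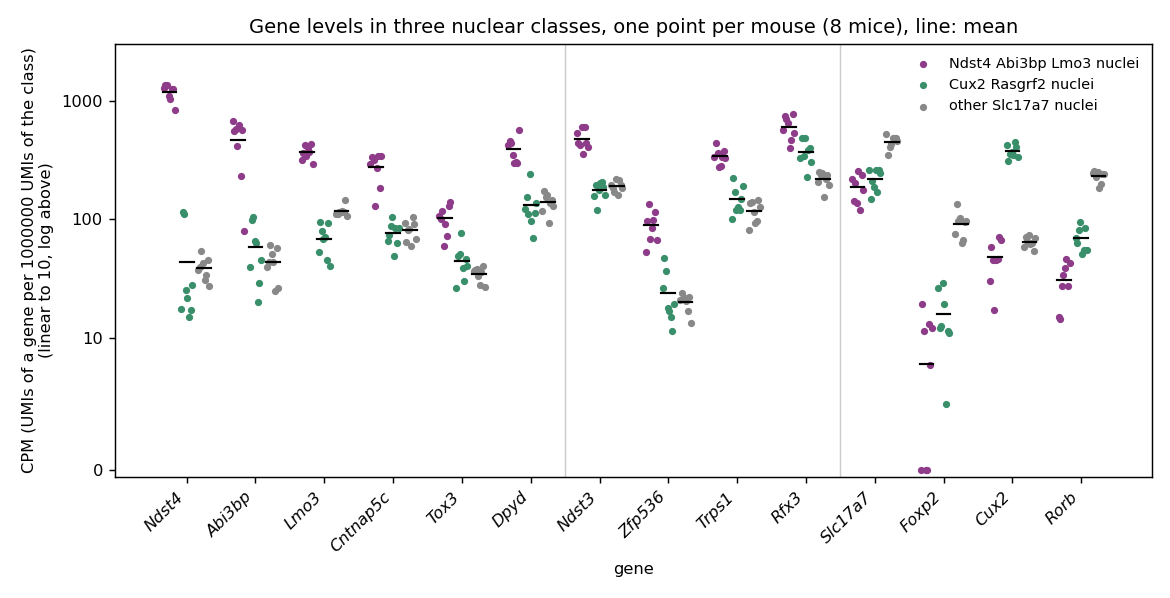
Levels of 14 genes, in CPM on an axis that is linear to 10 and logarithmic above, in members, Cux2 Rasgrf2 nuclei and other Slc17a7 nuclei, with a point for each of the 8 mice and a line at the mean. The left block holds Ndst4, the 4 second markers of the rule and Dpyd, and the middle block holds 4 of the leading genes. The right block holds Slc17a7, Foxp2, Cux2 and Rorb, with Foxp2 at 0 to 19.5 in members. Of these, Rorb is limited in members by the rule, while Slc17a7 and Cux2 were used to choose the comparison nuclei.

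Members varied among themselves along Abi3bp and Dpyd. Pooled over mice, the 199 members with Abi3bp had Ndst4 at 1638 CPM and Dpyd at 298, whereas the 256 without it had Ndst4 at 963 and Dpyd at 478. The 129 members with Tox3 had Dpyd at 567 CPM against 319 in the 326 without, and Abi3bp at 228 against 642. Members with 10 or more UMIs of Ndst4 had Abi3bp at 1020 CPM, against 303 in members with 2. The rule asks for at least 1 second marker, so a member without Abi3bp had to hold another of the 4, and the values of these markers are tied to each other by that choice. Dpyd is outside the rule, but these nuclei share mice and differ in depth (a median of 3038 UMIs with Abi3bp and 3837 without), and the differences were not tested.

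Markers of other cell types were in part absent and in part above the level of other Slc17a7 nuclei. Pdgfra (oligodendrocyte precursors), Cldn5 (endothelium), Folr1 (choroid plexus), Nxph4 (layer 6b), Rspo1 (layer 4) and Adora2a (striatum) had no UMI in any of the 455 members, which allows a share of up to 0.659% of members with a UMI, counting error only. The summed level of the 3 choroid plexus markers was 0 to 7.58 CPM in members of control mice and 13.02 to 26.46 in those of CUS mice. In other Slc17a7 nuclei it was 1.59 to 21.6, and the values in members rest on few UMIs per mouse. That of the 5 oligodendrocyte markers was 159 to 470 and 131 to 596. The summed level of the 8 interneuron markers was 137 to 307 in control and 222 to 332 in CUS mice, against 116 to 186 in other Slc17a7 nuclei. Most of it was Erbb4, a neuregulin receptor, at 198 CPM in members against 82.3 (higher in 7 of 8 mice), and Ndnf was at 23.5 against 3.33 (8 of 8 mice), while Gad1 and Gad2 were at 0 by the rule. The sum of the 8 striatal markers was 409 to 617 in control and 381 to 820 in CUS mice, against 416 to 713 in other Slc17a7 nuclei, most of it Pde10a (412 against 383), and Rarb was at 43.5 against 23.9 (7 of 8 mice). At least 1 UMI of 10 defining genes of other classes was held by 139 members. No doublet caller was run, and the part that free RNA and doublets play in these levels was not tested.

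Genes that led the members were taken as the 20 with the largest ratio to other Slc17a7 nuclei in the mouse where that ratio was smallest, at a mean of at least 50 CPM and outside the rule. Being above 1 in every mouse follows from this choice, so the ratios are a description. Zfp536, a zinc finger repressor of neuronal differentiation, headed the list at 90.1 ± 27.2 CPM against 20.2 in other Slc17a7 nuclei, and it was in 27.9% of members against 5.06%. Zfp536 was also frequent in Mog Opalin nuclei, where 46.5% held it. Among transcription factors, Trps1, a GATA-type repressor, stood at 342 ± 52.6 against 117, and Rfx3, a regulator of ciliary genes, at 602 ± 134 against 218.

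A second heparan sulfate enzyme was among these genes. Ndst3, the closest relative of Ndst4 in the family, was at 473 ± 90.4 CPM in members against 191 in other Slc17a7 nuclei, with ratios of 2.20 to 2.76 over the 8 mice, the narrowest range after that of Lrrtm4. Ndst1 and Ndst2 were low in members, at 26.4 and 7.88, against 29.8 and 11.2. The polymerase subunit Ext1 was at 281 against 200, higher in 8 of 8 mice. Hs3st4, a 3-O-sulfotransferase, was at 95.5 against 177, and the core protein Gpc6 at 90.7 against 262, both lower in 8 of 8 mice. Gpc4 was at 38.1 against 17.8, higher in 8 of 8 mice. Lrrtm4, a postsynaptic organizer that binds heparan sulfate proteoglycans, was the most abundant leading gene at 4036 ± 583 against 2082, and it was held by 96.3% of members.

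Further leading genes are given with their roles. Igsf11, an adhesion molecule, was at 137 against 46.1 CPM and Lrrn1, a leucine-rich repeat protein, at 67.3 against 23.9. The receptor phosphatase Ptpro was at 61.4 against 24.6, the Rac1 activator Tiam1 at 160 against 72.8 and Phactr2, which binds actin and protein phosphatase 1, at 126 against 38.5. The secreted protein Fam19a1 was at 1817 ± 225 against 750, and Syt17, a synaptotagmin, at 182 against 83.0. Plcxd3 was at 260 against 90.2 in other Slc17a7 nuclei and 34.9 in Cux2 Rasgrf2 nuclei. Filip1, which interacts with filamin, was at 89.9 against 21.9. The others were F730043M19Rik, Lmo7, Lhfpl3, Nsun7 and Abcb4, with mean ratios of 2.31 to 3.15.

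**Figure D2:**
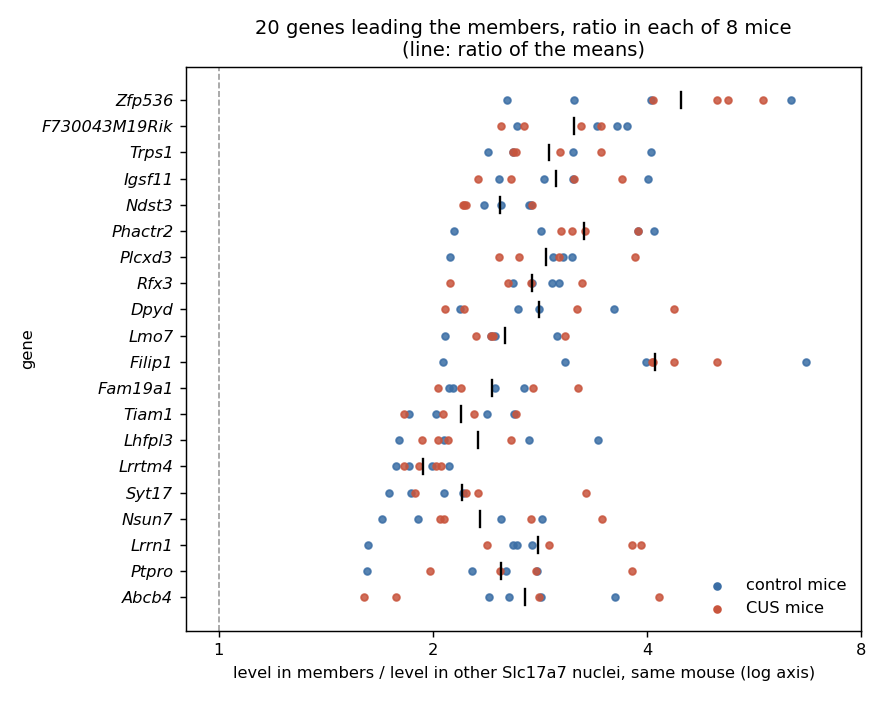
Ratio of the level in members to the level in other Slc17a7 nuclei of the same mouse, on a logarithmic axis, for the 20 leading genes, with a point for each control and CUS mouse and a line at the ratio of the means. Control and CUS mice are interspersed, and Ndst3 stays within 2.20 to 2.76.

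Some of the 15 genes lowest in members are given next, chosen after their values were seen. Foxp2, a layer 6 factor, was at 8.06 CPM against 91.4 in other Slc17a7 nuclei. The genome organizer Satb1 was at 32.2 against 84.2, the cadherin Cdh18 at 225 against 556, the metabotropic glutamate receptor Grm3 at 153 against 464 and the glutamate transporter Slc1a2, which is also an astrocyte marker, at 172 against 548. The rule drops nuclei with Rprm, Syt6, Deptor or Slc1a3, which the other nuclei may hold. The part of that choice in the low levels of Foxp2, Slc1a2 and the rest was not tested. Slc17a7 was in this list too, but the other nuclei had been chosen for holding it. Of the upper-layer genes, Rasgrf2 was at 133 in members and 118 in other Slc17a7 nuclei, and Cux2 at 47.8 and 65.1.

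The coherence of the group was examined with genes outside the rule. A profile of each of 19 nuclear classes was made from 7 mice, over 11964 genes without the genes that choose the classes, and each nucleus of the remaining mouse went to the profile under which its UMIs were most likely. Of the 455 members, 342 (75.2%) were assigned to the member profile, from 64.3% in control mouse 4 and CUS mouse 1 to 84.6% in control mouse 3. The other classes chosen in this way returned 15.2% to 96.5% to their own profile. Members that went elsewhere were most often placed with Cux2 Rasgrf2 nuclei (30), Cpne7 Nnat nuclei (27) and Fezf2 Parm1 nuclei (19). Own assignment was more frequent with more Ndst4, at 61.2% of members with 2 UMIs and 94.0% of those with 10 or more, whose median depths were 2950 and 4990 UMIs. It was 86.4% with Abi3bp and 66.4% without, and 87.6% with Tox3 and 70.3% without.

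The same profile also drew 1867 barcodes that the rule had left out. Of the 334 barcodes with 1 UMI of Ndst4 it took 49.4%. Ndst4, which the profile did not use, stood at 237, 374, 429 and 293 CPM in the profile-assigned non-members of control mice 1 to 4, and at 262, 177, 218 and 208 in those of CUS mice 1 to 4. In the remaining nuclei, neither members nor profile-assigned, it was 15.7 to 28.7 over the 8 mice, so the ranges did not overlap. Dpyd was among the genes of the profile, so its level in these nuclei is no separate measure. Together with the 342 members, 2209 nuclei (7.02%) carried the profile. Of all 5829 Ndst4 UMIs in quality-filtered barcodes, 38.4% lay in members, against 21.5% of Abi3bp UMIs and 5.20% to 7.11% of those of Tox3, Cntnap5c, Dpyd and Lmo3.

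Whether CUS altered the number of these nuclei was asked first. Members made up 1.19%, 1.95%, 2.10% and 1.24% of quality-filtered barcodes in control mice 1 to 4, and 1.04%, 1.19%, 1.94% and 0.718% in CUS mice 1 to 4. The groups overlapped, and CUS mouse 3 lay near the highest control mice. The means were 1.62% ± 0.472 in control and 1.22% ± 0.519 in CUS mice (SD, n = 4 each), a difference that did not exceed the spread between mice (p = 0.171, exact permutation test, two-sided, smallest p possible 0.0286). Profile-assigned nuclei made up 7.59% ± 0.897 and 6.61% ± 2.77 (p = 0.514, exact permutation test). Median UMIs per member were 2837, 3762, 3942 and 3963 in control mice and 3456, 2990, 3224 and 3926 in CUS mice, and the difference did not pass the same exact test (p = 0.514).

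**Figure D3:**
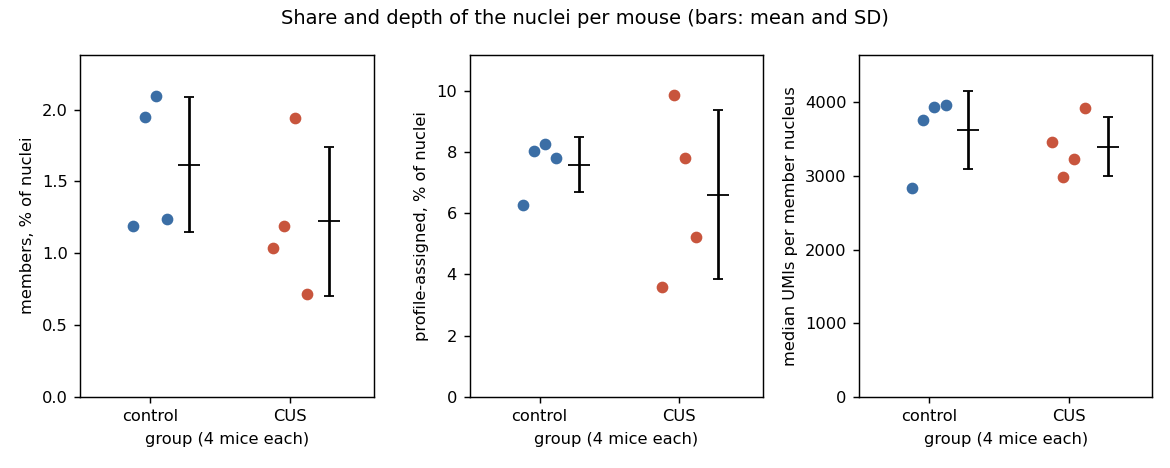
Members and profile-assigned nuclei as a percentage of quality-filtered nuclei, and median UMIs per member nucleus, with a point per mouse and the mean and SD of 4 mice beside each group. Shares of members lie at 1.19% to 2.10% in control mice and 0.718% to 1.94% in CUS mice.

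Ndst4 and several other genes of the group were lower after CUS in the bulk nuclei of the mPFC, which came from other mice and whose values the rule does not use. Ndst4 (chromosome 3, 125404076 to 125728899 on the plus strand of mm10) stood at 9.33, 74.7, 18.6 and 102 CPM (reads scaled by TMM factors, edgeR's correction for library composition) in control mice 1 to 4, and at 3.59, 6.51, 3.84, 2.98 and 4.48 CPM in CUS mice 1 to 5. Every CUS mouse was below every control mouse, and the control mice spread far more widely than the CUS mice. The fall was 3.59 ± 0.576 on the log2 scale (SE, edgeR quasi-likelihood test, adjusted p = 0.00968), a log2 fold change of -3.59, which ranked 1 by size among the 392 genes that fell in bulk. The SE of a change is here its size divided by the square root of the test's F value. In bulk nuclei a smaller number of Ndst4 nuclei and less Ndst4 RNA per nucleus cannot be told apart.

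Of the 5 other rule genes and markers, 4 fell as well. Abi3bp (chromosome 16, 56477878 to 56690135, plus strand) was at 48.6, 81.6, 38.1 and 69.9 CPM in control mice and at 23.7, 30.8, 26.9, 21.2 and 16.5 CPM in CUS mice, a log2 fold change of -1.32 ± 0.208 (adjusted p = 0.00954). Cntnap5c (chromosome 17, 57769570 to 58410355, plus strand) was at 146 to 159 CPM in control mice and 105 to 125 in CUS mice, with a log2 fold change of -0.45 ± 0.0603 (adjusted p = 0.00540). Again the groups did not overlap for either gene. Dpyd (chromosome 3, 118562129 to 119432924, plus strand) changed by -0.65 ± 0.117 (adjusted p = 0.0142) and Tox3 (chromosome 8, 90247040 to 90348343, minus strand) by -0.56 ± 0.1199 (adjusted p = 0.0296), both by edgeR and without overlap of the groups. Lmo3 (chromosome 6, 138362918 to 138581968, minus strand) did not pass, at 41.5, 47.5, 47.6 and 79.8 CPM in control and 36.0 to 46.0 CPM in CUS mice (log2 fold change -0.38 ± 0.157, adjusted p = 0.1803).

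Of the 20 leading genes outside the rule, 18 besides Dpyd were tested in bulk, and 3 of these fell, while F730043M19Rik was not among the genes tested. The 3 were Trps1 (log2 fold change -0.74 ± 0.127, adjusted p = 0.0130), Lhfpl3 (-0.56 ± 0.103, adjusted p = 0.0159) and the phospholipid transporter Abcb4 (-0.40 ± 0.0957, adjusted p = 0.0419). Ndst3, Fam19a1 and Syt17 had the opposite sign without passing, at 0.29, 0.28 and 0.24. Ndst3 and Fam19a1 passed as higher by edgeR's likelihood ratio test (adjusted p = 0.0265 and 0.0262), by DESeq2 and without TMM factors. Together with the rule genes and Dpyd, 8 of 24 genes fell and none rose, against 2.13% of all 18394 genes tested that fell and 1.16% that rose (3.29% called in all). Of the 18 leading genes alone, 16.7% were called. The group was proposed with earlier results of the whole series known, so the pooled shares are a description. Of the 24, 21 were lower in sign, against 48.7% of all genes. The groups did not overlap for 10 of the 24, against 1612 of all 18394 genes. Of these 10, 8 were lower, against 4.7% of all genes, and Ndst3 and Fam19a1 were higher. The median log2 change of the 24 was -0.34, against 0.0060 over all genes, and the 15 genes lowest in members had a median of 0.10 with none called.

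Markers of other cell types and areas also differed between the bulk libraries. Control mouse 4 was highest of all mice for 7 of the 8 striatal markers, with Drd2 at 19.0 CPM against 1.79 to 4.15 in the other control mice and 1.18 to 2.24 in CUS mice, and Rarb at 139 CPM against 25.1 to 45.8 in all other mice. Of the 8 striatal markers 7 were lower and none of these passed the test, while Pde10a rose (log2 fold change 0.61, adjusted p = 0.0161). Because Pde10a dominates it, the summed level of the 8 was 679 to 1167 CPM in control and 1164 to 1406 in CUS mice. The 4 astrocyte markers were lower, of which Gja1 (-0.56) and Aqp4 (-0.69) fell, and the 5 oligodendrocyte markers were lower without passing. The 3 claustrum markers were lower, with summed levels of 64.0 to 67.5 CPM in control and 48.8 to 56.7 in CUS mice, and of these Nr4a2, which is also an activity-regulated gene, fell. The 4 layer 6 markers were lower without passing. Ndnf, which members also carry, fell (-0.49 ± 0.105, adjusted p = 0.0300), as did Angpt1 (-0.62 ± 0.153, adjusted p = 0.0465), a marker of Tshz2 nuclei. The 4 excitatory markers were higher, of which Neurod6 rose (0.46 ± 0.0778, adjusted p = 0.0119). Without control mouse 4, Ndst4 still changed by -3.01 (adjusted p = 0.0170) and Abi3bp by -1.23 (adjusted p = 0.0200), while the value of Lmo3 was -0.12. Without control mouse 2, which was second highest in Ndst4, 4 of the 24 genes passed, namely Cntnap5c, Abi3bp, Ndst4 and Trps1. In that run 0.718% of all genes passed. The part of the dissected area and of cell makeup in these differences was not tested.

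**Figure D4:**
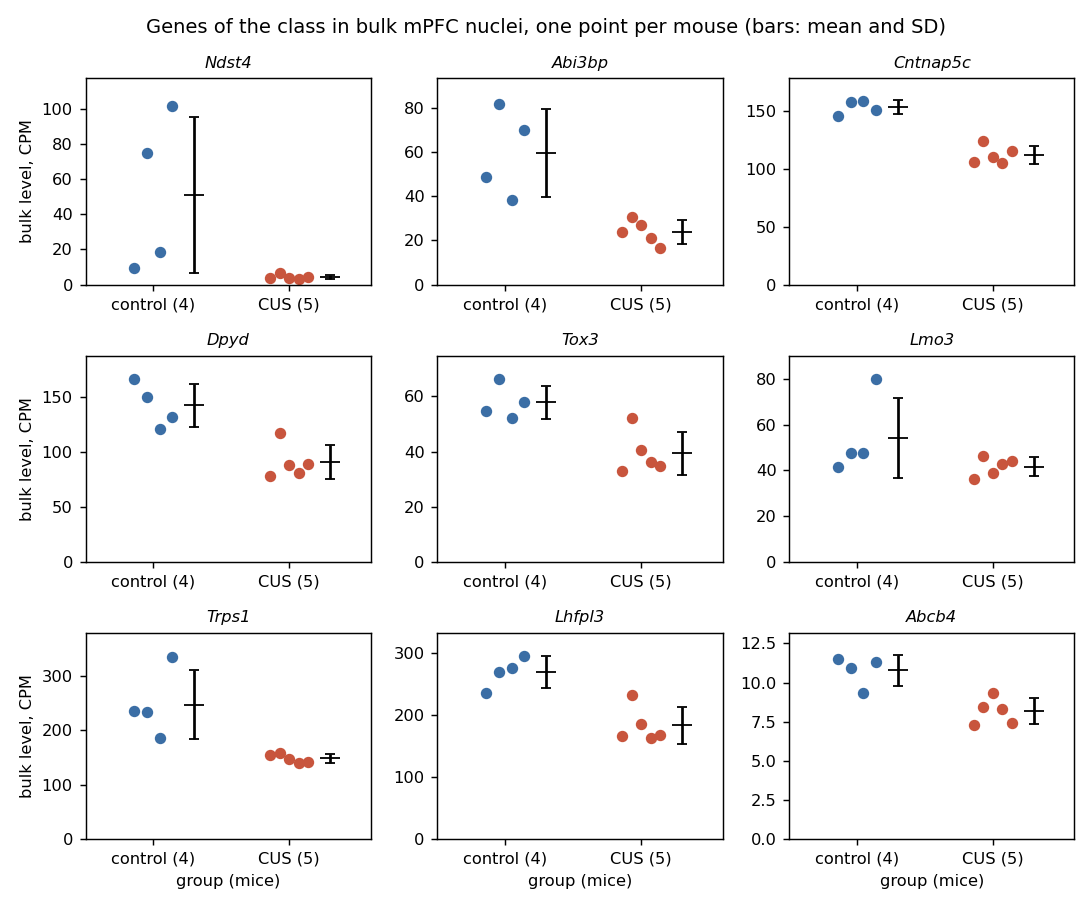
Bulk mPFC levels in CPM of the rule genes, Dpyd and the 3 called leading genes, with a point for each of 4 control and 5 CUS mice and the mean and SD beside them. Ndst4 lies at 2.98 to 6.51 in CUS mice and 9.33 to 102 in control mice, and Lmo3 is the panel in which the groups overlap most.

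The same genes were then followed in the neocortical nuclei. Summed over all quality-filtered barcodes, Ndst4 was at 77.5 ± 19.9 CPM in control and 57.6 ± 18.1 in CUS mice (SD, n = 4 each), and Abi3bp at 54.5 ± 10.3 and 43.6 ± 16.4. Dpyd was at 152 ± 17.1 and 126 ± 19.1, while Tox3 stood at 45.5 and 44.2, Lmo3 at 115 and 117, and Cntnap5c at 114 and 108.5. Changes and levels in the tests of nuclei are also on TMM-scaled CPM. Within members, where the rule requires Ndst4, its change was -0.22 ± 0.183 on the log2 scale and that of Dpyd was -0.21 ± 0.204. Tox3, Lmo3 and Cntnap5c had values of 0.14, 0.026 and -0.0040 in members. In the 2209 profile-assigned nuclei, whose assignment did not use Ndst4, its log2 change was -0.54 ± 0.162, with 465, 689, 723 and 457 CPM in control and 459, 376, 482 and 311 in CUS mice. This change did not pass (edgeR quasi-likelihood test, adjusted p = 0.779). There Dpyd was at -0.23, Abi3bp at -0.35, Tox3 at 0.11, Lmo3 at 0.075 and Cntnap5c at 0.032. Abi3bp in members was at 751, 601, 622 and 459 CPM in control mice and at 660, 272, 598 and 87.1 in CUS mice. CUS mice 2 and 4 were low and the other CUS mice lay within the control range. The bulk and nuclear sets differed in area, age and time of collection, and the difference between their changes was not tested.

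Within members, no gene passed the test for CUS against control. Over 6569 genes whose summed UMIs exceeded 10% of the number of members, edgeR's quasi-likelihood test at an adjusted p of 0.2, the study's threshold for nuclei, called 0 (0%), with 318 genes at an unadjusted p under 0.05 (4.84%). DESeq2 called 0 with 130 genes under that p, and edgeR's likelihood ratio test called 1. The smallest adjusted p was 0.528, for Gm11639. The study ran its nuclei in 2 batches, each with 2 control and 2 CUS mice, and reported a profound batch effect. The labels do not give the batch of a mouse, and no batch term could be fitted. With a batch term and a likelihood ratio test, the study found more changed genes in an excitatory cluster named after Ndst4 than in non-excitatory groups of equal size. How far that cluster and the members overlap was not tested.

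By the rule of smallest p, 5 genes in each direction are described, none of which passed the main test. Gm11639, Unc5c, Npas3 and Dusp6 passed in some alternative runs, which the closing sections give. Gm11639 had 4, 12, 20 and 8 UMIs in members of control mice 1 to 4 and 1, 1, 2 and 1 in those of CUS mice, without overlap, which gave a log2 fold change of -2.47 ± 0.578. In the 2209 profile-assigned nuclei its change was -0.38 ± 0.248. Unc5c, a receptor for the guidance cue netrin, was at 726, 937, 775 and 1445 CPM in control and 296, 817, 578 and 597 in CUS mice. Npas3, a bHLH-PAS transcription factor, had values of 249 ± 69.2 and 135 ± 102, and the microtubule protein Dcx of 183 ± 51.4 and 89.8 ± 35.9. Prr16 stood at 303 ± 53.6 and 179 ± 65.6, and its change in profile-assigned nuclei was much the same as in members (-0.71 ± 0.172 and -0.80 ± 0.225).

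In the other direction, Dusp6, a phosphatase that turns off ERK signalling, was at 0, 7.94, 24.7 and 0 CPM in control and 34.4, 70.1, 71.1 and 20.1 in CUS mice. CUS mouse 4 lay within the control range. The imprinted noncoding RNA Mirg had 112 ± 21.3 and 211 ± 57.8 CPM in members, where it did not pass, and in bulk it rose by 0.43 ± 0.0700 on the log2 scale (edgeR, adjusted p = 0.00969), which none of the other 9 genes did. By the likelihood ratio test and DESeq2, Hnrnpd and Dusp6 passed in bulk too, and Hnrnpd had the opposite sign there (-0.23). Synj2, an inositol phosphatase of membrane traffic, was at 31.8 to 38.3 CPM in control and 58.6 to 110 in CUS mice. Igfn1 lay at 16.9 to 49.4 and 62.3 to 114, and the RNA-binding protein Hnrnpd at 59.1 to 93.8 and 113 to 248. The groups did not overlap for Synj2, Igfn1 and Hnrnpd, as was the case for 2.91% of all genes tested. These genes were chosen by their p in the same test, so their separation follows in part from that choice. The log2 changes of Mirg, Synj2, Igfn1 and Hnrnpd were 0.898, 1.235, 1.237 and 0.957 in members. In profile-assigned nuclei they were smaller, at 0.40, 0.42, 0.39 and 0.21, and Dusp6 was not tested there.

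Gene lists are described by counts. Activity-regulated genes, which neurons switch on after firing, leaned higher in CUS mice: 21 of 50 passed the filter, 18 of these had higher values, 7 with an unadjusted p under 0.05. Over all genes tested 50.4% had higher values and 2.48% had such a p and were higher. The median log2 change was 0.51, against 0.0035 over all genes. With a mouse left out the median was lowest, 0.29, without CUS mouse 1, and the 7 became 3 without control mouse 1 and 4 by DESeq2. Without the filter on low counts, which sums both groups and so lets a gene pass through the CUS mice alone, 33 of 48 genes had higher values and 15 lower, with a median of 0.36 against -0.069 over all genes. In that setting 4 of the 48 had an unadjusted p under 0.05 by edgeR's quasi-likelihood test, against 3.9% of all genes. None passed at the adjusted threshold. Nr4a1, an immediate early nuclear receptor, was at 25.3, 34.4, 22.2 and 38.3 CPM in control and 131, 62.3, 54.4 and 40.2 in CUS mice, without overlap. Btg2 was at 17.7 ± 6.33 and 39.3 ± 7.68 CPM and Jun at 24.8 ± 5.36 and 44.5 ± 17.9, both without overlap, on few UMIs per mouse. Homer1, a scaffold of glutamate receptors, was at 158 ± 68.5 and 241 ± 51.2, and the secreted peptide precursor Vgf at 46.2 ± 28.9 and 79.6 ± 31.0. Npas4 had the opposite sign, at 32.7 and 27.0 CPM. In profile-assigned nuclei 11 of 15 tested genes had higher values, with a median of 0.18. Over all genes there, edgeR's quasi-likelihood test also called 0 of 5929, with 6.05% at an unadjusted p under 0.05.

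In the bulk mPFC, 4 of the same 21 genes rose and 4 fell, with a median of -0.16. Of all 50 genes in the list, 12 fell and 4 rose there, against 2.13% and 1.16% of all genes. These counts moved with single mice, with 7 and 1 without control mouse 2, and 17 and 6 without control mouse 3. Calls over all genes moved too, from 3.29% to 0.718% without control mouse 2 and to 8.16% without control mouse 3. Of the 21, only Nr4a2 and Sorcs3 passed without control mouse 2, CUS mouse 4 or CUS mouse 5. In these runs 0.718%, 0.805% and 0.772% of all genes passed. Nr4a2 (log2 fold change -1.76 ± 0.181), Btg2 (-1.07 ± 0.209), Pcsk1 (-0.49 ± 0.115) and Homer1 (-0.35 ± 0.0818) fell there, and Sorcs3 (0.57 ± 0.0648), Vgf (0.59 ± 0.145), Mical2 (0.53 ± 0.132) and Nrn1 (0.34 ± 0.0810) rose. Homer1 and Btg2 thus had opposite signs in members and in bulk, and Vgf and Mical2 the same sign. The difference between the 2 kinds of data was not tested.

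**Figure D5:**
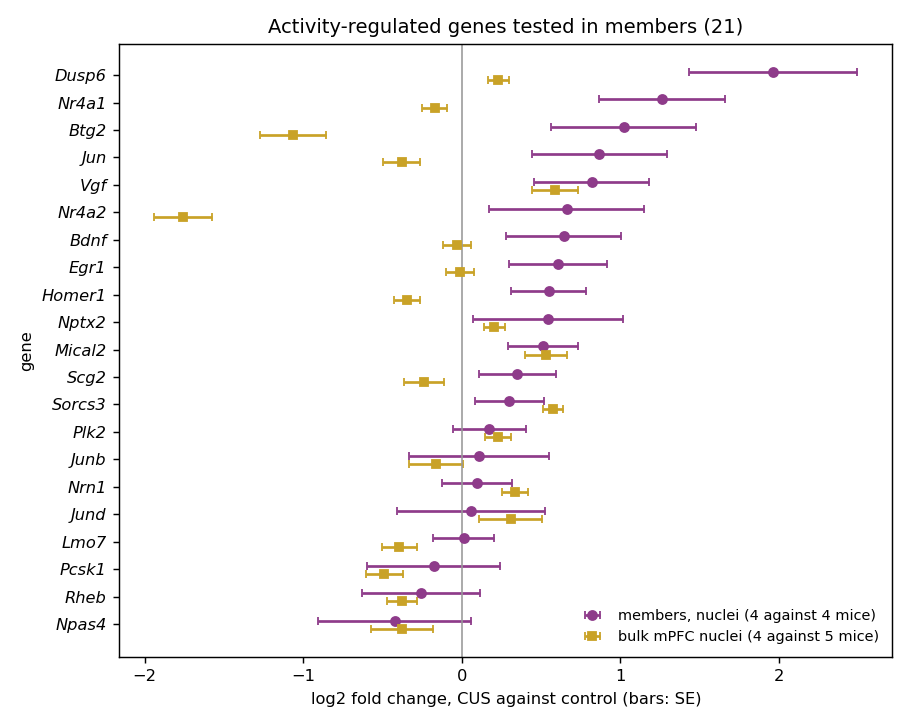
Log2 fold changes of CUS against control mice with their SE for the 21 activity-regulated genes tested in members (circles) and in bulk mPFC nuclei (squares). In members 18 of 21 lie right of 0 without passing the test, while the bulk values lie on both sides.

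Of the GABA-A receptor genes, 14 of 17 were tested and 12 had lower values in CUS mice (median -0.12), 2 with an unadjusted p under 0.05 against 2.36% of all genes that had such a p and were lower. Gabrg3, a gamma subunit, was at 279, 426, 378 and 660 CPM in control and 220, 366, 289 and 328 in CUS mice, which overlapped (log2 fold change -0.51 ± 0.216, not passing). Gabrg1 was at 40.7 ± 22.9 and 24.7 ± 26.8 CPM. In bulk nuclei Gabrg1 fell (-0.62 ± 0.112, adjusted p = 0.0145), and the list had a median of 0.0205. In members the list's median ran from -0.30 without CUS mouse 2 to -0.10 without CUS mouse 1. Of the heparan sulfate genes, 21 of 33 were tested and 15 had lower values, the rule gene Ndst4 among them (median -0.17), with Hs3st5 at 65.1 ± 31.5 and 29.3 ± 14.7 CPM, Hs3st2 at 87.2 and 52.6, and Extl2 at 22.3 and 33.8. This lean was lost without members that held UMIs of another class (10 lower and 9 higher, median -0.0051), and the median was -0.046 without control mouse 2 and -0.082 without CUS mouse 1. In bulk nuclei 32 of the 33 were tested, and 2 fell, Ndst4 and the core protein gene Sdc1, against 2.13% of all genes. Of the axon guidance and adhesion genes, 50 of 58 were tested and 34 had lower values (median -0.16), led in size by Ntng2 (1.05 ± 0.392), Unc5c (-0.75 ± 0.217) and Cdh8 (-0.69 ± 0.264). Without CUS mouse 3 it was 29 lower and 21 higher (median -0.075), without members that held UMIs of another class also 29 and 21 (median -0.081), and without control mouse 2 the median was -0.095. No gene of any list passed the adjusted threshold.

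The remaining lists had values on both sides. Of 49 excitatory synapse genes tested, 26 had lower values (median -0.035), with the largest changes in Grik3 (-0.68), Grm8 (-0.60) and Grm3 (-0.55). Ribosomal protein genes had higher values in 13 of 19 (median 0.21), led by Rplp2 (0.77), Rpl32 (0.71) and Rplp1 (0.55). Glucocorticoid response genes had lower values in 8 of 12 (median -0.15), with Zbtb16 at 0.56, Fkbp4 at -0.46 and Fkbp5 at -0.42. Potassium channel genes had lower values in 18 of 29 (median -0.13), with Kcnab1 (-0.62), Kcnd3 (0.61) and Kcnj3 (-0.40). The Yy1, Ctcf and cohesin genes had higher values in 8 of 12 (median 0.10), with Smc1a at 0.85, Stag2 at 0.75 and Mau2 at 0.35. The LIM-only, LIM-binding and Tox genes had higher values in 5 of 7 (median 0.054), with Tox4 at 0.47, Tox at -0.37 and Ldb2 at -0.25. The 5 include the rule genes Lmo3 and Tox3, whose values in members are tied to the rule. In profile-assigned nuclei the glucocorticoid, potassium channel and Yy1 lists had medians of the opposite sign, at 0.020, 0.029 and -0.0097. The direction of several of these lists rested on single mice or on the filter. Without control mouse 2 the ribosomal list had 10 lower and 9 higher values (median -0.0058), without CUS mouse 1 the potassium channel list had 15 lower and 14 higher (median -0.0014), and without control mouse 4 the excitatory synapse list had 23 lower and 26 higher (median 0.0071). Without the filter on low counts the medians of the glucocorticoid and LIM lists were 0.0051 and -0.076. The Yy1 list had 6 of 12 in each direction without control mouse 1.

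Gene length moved with these differences. Among genes of at most 20 kb, 39.9% had lower values in members of CUS mice (median log2 change 0.092), and among genes over 500 kb 79.3% did (161 of 203, median -0.13). In profile-assigned nuclei these shares were 39.5% and 73.5%. The activity-regulated genes tested had a median length of 9.77 kb. The part of length in the list values was not tested.

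The response of members was set beside that of Cux2 Rasgrf2 nuclei of the same mice, with a block for the mouse. Over 6093 genes, edgeR's quasi-likelihood test of the difference in change called 0 (0%) at an adjusted p of 0.2. At an unadjusted p under 0.05 there were 274 genes (4.50%). The likelihood ratio test called 2, Cyp4x1 and the rule gene Ndst4. In the main test the smallest p belonged to Ndst4, whose level in both classes is limited by the rule, so its value is given without a test. In Cux2 Rasgrf2 nuclei, 60 of which held Ndst4, it was at 19.6, 127, 120 and 28.7 CPM in control and 23.5, 17.5, 18.6 and 29.4 in CUS mice, with control mice 2 and 3 high and the other control mice within or near the range of the CUS mice. Cyp4x1, a cytochrome P450, was at 42.0 to 50.6 CPM in members of control mice and at 0, 7.78, 8.37 and 40.2 in those of CUS mice, while in Cux2 Rasgrf2 nuclei it was at 19.6 to 45.1 and 46.7 to 58.8. Its log2 change differed by -2.35 ± 0.596 between the classes (adjusted p = 0.831). For Igfn1, Fstl4 and Sh3kbp1 the difference was 1.52 ± 0.398, 0.87 ± 0.239 and 0.91 ± 0.261, with adjusted p of 0.831, 0.995 and 0.995. In Cux2 Rasgrf2 nuclei on their own, 52 of 6584 genes passed at this threshold.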

How the data were processed

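The authors aligned reads to mm10 with STAR, kept uniquely mapped reads and deposited counts without normalization. These are reads per gene for bulk nuclei, and UMIs on exons and introns per gene and barcode, 5000 barcodes per mouse, for sNucDrop-seq. Depth was 6074138 to 15459579 UMIs per mouse in 2267 to 4959 quality-filtered nuclei, and about 26190000 to 30530000 reads in bulk. The doublet score and clustering of the study were not repeated. The members, gene lists and tests were chosen with earlier results of these data known.

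UMIs of members were summed per mouse and tested in R 4.3.3 with edgeR 4.0.16 (TMM factors, quasi-likelihood test, Benjamini-Hochberg adjustment, 0.2 for nuclei). Bulk counts of the 18394 genes kept by filterByExpr were tested at 0.05. edgeR gives no SE, so that of each change was worked back from the F value of its test. Exact permutation tests compared shares and depths over mice. Thinning used 1000 UMIs. Gene lengths came from GENCODE vM21 (99.1% of genes matched). Named genes were the rule genes and markers, the 20 leading genes, the 5 smallest p per direction, 3 genes per list with the largest change and the 5 smallest p of the class comparison, and others were chosen after their values were seen. Scripts were tested on simulated data. Alternatives included DESeq2 1.42.0. Some genes that these rules name are not reported here.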

Additional observations from a re-analysis of the deposited data

Results flagged for a closer look

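In 74 groups of 4 or 5 mice, Dixon's ratio placed 4 mice apart from the rest of their group, about as many as the 1 in 20 that chance gives. In bulk nuclei, Lmo3 was at 79.8 CPM in control mouse 4 against 47.6 in the next control mouse. The same mouse was highest for 7 of the 8 striatal markers, Pde10a being the exception. Among CUS mice, Dpyd was at 117 CPM in the highest mouse against 88.6 in the next. Nsun7 was at 12.4 CPM against 11.3, and Ptpro at 112 CPM against 57.7.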

How the results depend on the processing

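The lower share of members in CUS mice kept its sign and did not pass the test in any alternative run, including profile membership, which was added after seeing the data (difference -0.976 percentage points), and so did the depth per member. Calls within members numbered 1 by the likelihood ratio test and 1 without members that held UMIs of another class (Gm11639 in both), and 0 to 4 with each mouse left out, where the 4, Npas3, Lcorl, Cyp4x1 and Dusp6, came without CUS mouse 4. For the difference between classes the likelihood ratio test called 2 (Ndst4 and Cyp4x1), and leaving out a mouse gave 0 to 3. Ndst4 was among the calls without control mouse 1, control mouse 4 or CUS mouse 4. The rule limits its level in both classes, so the calls of Ndst4 are not read as a result. Among the 24 genes of the class in bulk, the likelihood ratio test called 13 and DESeq2 14, against 8, in each case with 2 higher (Ndst3 and Fam19a1), and leaving out a mouse gave 4 to 13: 13 without control mouse 3, 4 without control mouse 2, and 5 without CUS mouse 4 or CUS mouse 5. Ndst4, Abi3bp, Cntnap5c and Trps1 passed in all 14 bulk alternatives, Dpyd in 13, Lhfpl3 in 11, Tox3 in 9 and Abcb4 in 6. Over all bulk genes the calls ran from 132 without control mouse 2 to 1500 without control mouse 3, with 1330 by the likelihood ratio test and 1402 by DESeq2. The causes were not tested.

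The labels do not say that a number marks a shared cage, day or batch. Deviations of same-numbered mice correlated at -0.0087 to 0.14 in members and at -0.0066 to 0.23 in bulk, not over 0.1 in every pair, so the numbers were not taken as pairs. As a hint from the data, 4 of 8 sums of members and 5 of 8 bulk samples were closest to their own number. The replicate block called 4 genes in members (Unc5c, Npas3, Dusp6 and Gm11639) and 7 of the 24 in bulk, where it called 233 of all genes against 606. Within replicate numbers the share differed with p = 0.125 (exact permutation), the smallest this test allows.

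Members were few, with 28 to 104 per mouse. Thinning to 1000 UMIs left 178 members.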
